A study of Mus musculus with 24 samples.

Results

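The Hippo kinase cascade is a chain of serine/threonine kinases with their adaptors. MST kinases (Stk3, which encodes MST2, and Stk4, which encodes MST1) bind the scaffold SAV1 and phosphorylate LATS kinases (Lats1, Lats2) and their MOB1 co-activators (Mob1a, Mob1b). LATS kinases in turn phosphorylate the transcription coactivator YAP, which is then held in the cytoplasm. NF2 (Merlin), a membrane-linked protein, and WWC proteins (KIBRA and its relatives, here Wwc2) recruit and activate the kinases at the cell cortex. In the heart the pathway is known as a brake on cardiomyocyte division after birth. These 9 genes were taken by symbol as the family upstream of YAP. All 9 were listed in both deposited tables, of 15667 genes in the uninjected table and 15327 in the injected table, and all 9 passed the filter on low values.

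RNA was profiled from hearts at postnatal day 7.5 in 24 libraries, 4 in each of 6 groups, from a line kept on C57BL6. Xinβ-KO mice carry a germline loss of Xirp2, in which parts of exon 6, intron 6 and exon 7 were replaced by a LacZ-Neo cassette, so every cell type lacks the gene. WT controls were littermates by the study's methods. One experiment compared uninjected Xinβ-KO with uninjected WT hearts. In the other, WT and Xinβ-KO pups received AAV9 on day 1 at 1e10 viral genomes per gram, with GFP (WT/GFP, Xinβ-KO/GFP) or Flag-tagged human YAP with the S127A substitution, which removes a LATS phosphorylation site (WT/aYAP, Xinβ-KO/aYAP). Both vectors used a cardiac troponin T promoter, so transgenes are driven in cardiomyocytes while RNA came from whole tissue. The labels name the heart apex and the study's methods the ventricles. Nothing in the labels ties libraries to litters, so litters were not modelled and the tests treat libraries as independent. The p-values set each group difference against the spread between libraries within groups.

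The tables give CPM, a normalised read count scaled to library size. Estimated reads on genes ran from 20490875 to 31154155 per uninjected library and from 15015038 to 19444404 per injected library, and a member had between 220 and 4465 of them. Xirp2 was at 106 to 168 CPM in uninjected WT hearts and at 0.291 to 0.692 CPM in uninjected Xinβ-KO hearts. In the injected table it was at 56.0 to 149 CPM in WT libraries and at 0.0 to 0.972 CPM in Xinβ-KO libraries, so all 24 libraries matched their genotype. Xinβ-KO replicate 1 of the uninjected table held the lowest value of that table in 7 of the 9 members and in 28.8% of all tested genes. Xinβ-KO/GFP replicate 2 did so in 5 of the 9 members and in 14.3% of tested genes of the injected table, and Xinβ-KO/GFP replicate 4 in 1 member (Lats2) and 15.2% of tested genes. In the injected table Xinβ-KO/GFP replicate 4 also had the widest SD over genes of log2 deviations from the mean of the table, 0.51, against 0.43 for replicate 2. The deposited values sum highest in Xinβ-KO replicate 1 (1084066) and Xinβ-KO/GFP replicate 2 (1134439) of their tables.

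Levels between genes were compared per kilobase of principal transcript, the longest coding transcript with the APPRIS principal tag in GENCODE M21. Nf2, on chromosome 11 from 4765845 to 4849536 (GRCm38), was the most abundant member in all 6 groups, with group means of 25.1 to 30.9 CPM per kb. Mob1b ranked 2 in all 6 groups, at 23.2 to 27.5 CPM per kb, and Sav1 ranked 3, at 16.5 to 20.96 CPM per kb. Lats2, Mob1a and Wwc2 shared ranks 4 to 6, at 8.03 to 12.4, 7.79 to 13.8 and 8.39 to 11.1 CPM per kb. Stk3, Lats1 and Stk4 were lowest in every group, between 3.80 and 6.46 CPM per kb. Of the kinases, Lats2 therefore stood above Lats1 in every group, while neighbouring members among Stk3, Lats1 and Stk4 overlapped in range in all 6 groups. Nf2 and Mob1b also overlapped in range in every group except uninjected WT.

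**Figure D1:**
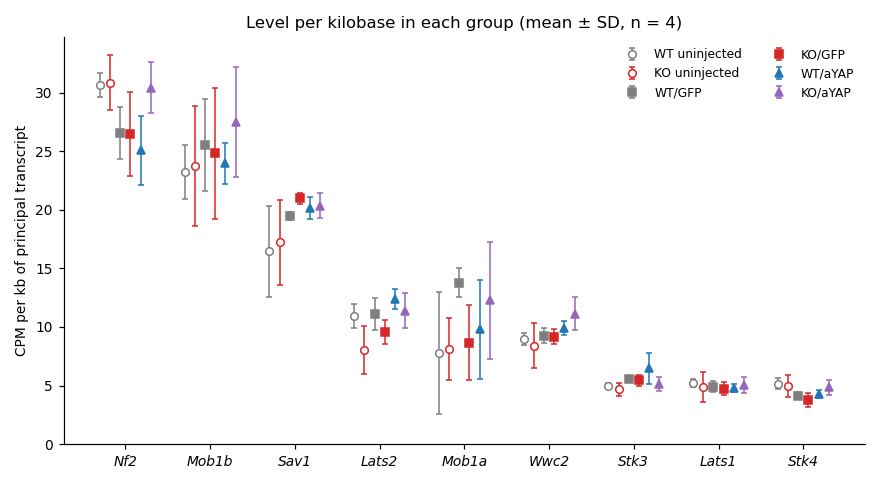
Mean CPM per kilobase of principal transcript for the 9 genes (horizontal axis, ordered by their mean over groups) in each of the 6 groups; error bars are the SD of 4 libraries. Nf2, Mob1b and Sav1 lie above the other 6 genes, and Stk3, Lats1 and Stk4 lie lowest in all groups.

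The places of Mob1b and Sav1 rest on the transcript chosen. The principal transcript of Mob1b spans 2705 bases while all of its annotated exons together span 15033 bases. Over merged exons Mob1b was at 4.18 to 4.95 CPM per kb and ranked 7 or 8, and Nf2 still ranked 1 in all 6 groups. Stk3 then ranked 9 throughout. Sav1 ranked 2 or 3 on this scale, below Mob1a in WT/GFP (9.31 against 12.7 CPM per kb) and Xinβ-KO/aYAP hearts (9.76 against 11.3 CPM per kb) and below Lats2 in uninjected WT hearts (7.90 against 8.15 CPM per kb).

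The 9 genes differed in how much they varied within groups. Nf2 and Stk3 varied little in uninjected hearts, with a pooled SD of 0.09 and 0.12 on the log2 scale against a median of 0.23 over all tested genes. Sav1 was among the steadiest genes of the injected table, with a pooled SD of 0.05 against a median of 0.22, smaller than in all but 0.0206% of tested genes. Mob1a varied most, with pooled SDs of 0.83 and 0.67, larger than in 98.3% and 97.9% of tested genes. The other members lay between these extremes.

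**Figure D2:**
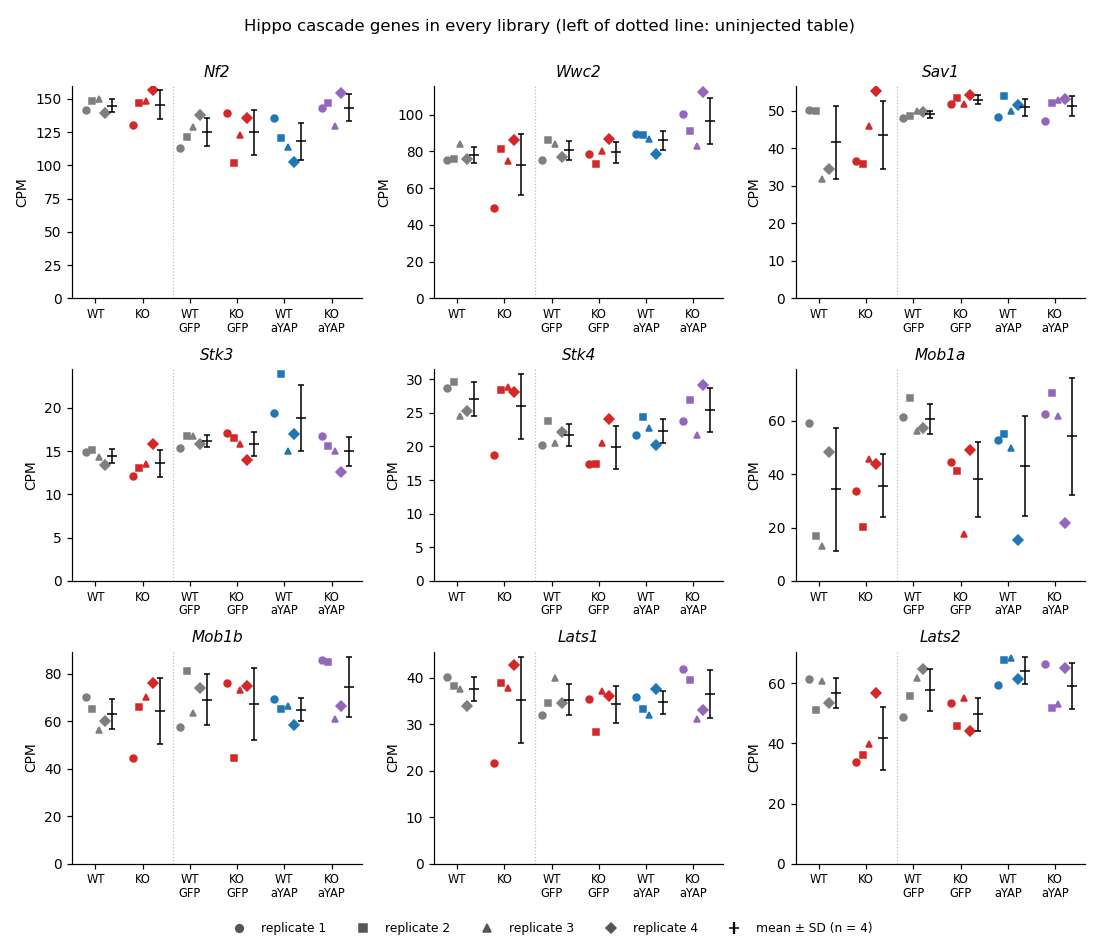
CPM (vertical axes, from 0) of each of the 9 genes in the 24 libraries, by group; symbols give the replicate number and black bars the mean ± SD of 4 libraries. Mob1a falls to between 13.0 and 21.6 CPM in 6 libraries scattered over 5 groups, and Lats2 is low in 3 of the 4 uninjected Xinβ-KO libraries.

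The first comparison asks whether transcripts of the cascade differ when Xinβ is lost. In uninjected hearts none of the 9 members passed the test (limma with Benjamini-Hochberg adjustment over all tested genes, adjusted p under 0.05), where 6.69% of all 15598 tested genes did. By the same tool 1 member, Lats2, had an unadjusted p under 0.05, against 22.5% of all genes, and by edgeR's quasi-likelihood test 0 members were called. The groups overlapped in all 9 members, while they did not overlap in 16.4% of all genes. The median size of the change was 0.09 on the log2 scale over the members and 0.19 over all tested genes.

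Lats2 encodes one of the LATS kinases that phosphorylate YAP and lies on chromosome 14 from 57689662 to 57758388. Lats2 is also in the list of YAP targets used further below. In order of replicate, it measured 61.4, 51.3, 60.9 and 53.6 CPM across the WT hearts against 33.9, 36.04, 39.8 and 56.9 CPM across the Xinβ-KO hearts. The first 3 Xinβ-KO libraries lay below every WT library and the fourth lay inside the WT range. The log2 fold change was -0.46 (standard error 0.16, 95% confidence interval -0.83 to -0.10, adjusted p = 0.127 by limma). Without Xinβ-KO replicate 4 it was -0.62 and passed the test (adjusted p = 0.00875 by limma), in a fit whose calls over all genes rose from 1044 to 2031. Over the 8 fits that each left out 1 library it ran from -0.62 to -0.38, with an adjusted p of up to 0.297 by limma. That library had Ddx3y, a Y-linked gene, at 3.68 CPM, against 21.7 to 56.2 CPM in the other uninjected libraries, WT included. With Ddx3y as a covariate the Lats2 difference was -0.62 on the log2 scale (adjusted p = 0.0262 by limma) and calls over all genes rose to 1927. Since the low Ddx3y value belongs to that same library, this is not a check separate from leaving it out.

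Markers of other heart cells were read in the same libraries. The 6 fibroblast markers summed to 2809 to 2953 CPM in WT and 1490 to 2271 CPM in Xinβ-KO hearts, with 2 of 6 called lower. Endothelial markers summed to 1457 to 1618 and 1093 to 1360 CPM. Cardiomyocyte markers summed to 54968 to 62088 CPM in WT and 60200 to 80627 CPM in Xinβ-KO hearts. The part of these cells in the Lats2 values was not tested, and fewer cells of a type cannot be told apart from less RNA per cell in whole tissue. Gm49361, an annotated gene on the same strand that was not listed, shares 2955 bases or 42.4% of the merged exon length of Lats2. Of the principal Lats2 transcript, 56.5% of 50-base windows and 55.7% of 150-base windows occur in Gm49361, so Lats2 values, its level per kilobase included, are uncertain.

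Lats1, the other LATS kinase, measured 34.0 to 40.2 CPM across the WT hearts against 21.7, 38.8, 37.8 and 42.6 CPM across the Xinβ-KO hearts. Its log2 fold change was -0.13 (95% confidence interval -0.57 to 0.31). Xinβ-KO replicate 1, the low library named above, lay below the WT range, replicates 2 and 3 inside it and replicate 4 above it.

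Neither MST kinase passed the test. Stk3 measured 14.9, 15.2, 14.3 and 13.4 CPM across the WT hearts against 12.1, 13.0, 13.5 and 15.8 CPM across the Xinβ-KO hearts (log2 fold change -0.09, 95% confidence interval -0.34 to 0.17). Stk4 measured 28.7, 29.6, 24.6 and 25.3 CPM across the WT hearts against 18.7, 28.3, 28.8 and 28.0 CPM across the Xinβ-KO hearts (-0.07, -0.42 to 0.27). For both genes the groups overlapped, and a change of more than 1.5-fold lay outside the interval.

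Nf2 measured 141, 148, 149.6 and 139.8 CPM across the WT hearts against 130.3, 147, 149 and 157 CPM across the Xinβ-KO hearts. The log2 fold change of Nf2 was 0.01 (standard error 0.09), and its 95% confidence interval of -0.19 to 0.20 was the narrowest of the 9. The interval corresponds to 0.876-fold to 1.15-fold. Wwc2 measured 75.5 to 84.2 CPM across the WT hearts against 48.9, 81.4, 74.9 and 85.9 CPM across the Xinβ-KO hearts (log2 fold change -0.13, 95% confidence interval -0.51 to 0.25). Of the Wwc2 values, replicate 1 lay far below and replicate 3 just below the WT range. Mob1b, an activating subunit of LATS, was at 56.1 to 70.3 CPM in WT and 44.3 to 76.1 CPM in Xinβ-KO hearts (log2 fold change 0.00, 95% confidence interval -0.37 to 0.38).

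Mob1a and Sav1 varied within both uninjected groups. Mob1a measured 59.3, 16.8, 13.0 and 48.4 CPM across the WT hearts against 33.8, 20.1, 45.7 and 43.7 CPM across the Xinβ-KO hearts (log2 fold change 0.26, 95% confidence interval -0.83 to 1.35). Sav1, the scaffold that joins MST to LATS, measured 50.1, 49.9, 31.8 and 34.5 CPM across the WT hearts against 36.7, 35.9, 46.0 and 55.3 CPM across the Xinβ-KO hearts (log2 fold change 0.07, 95% confidence interval -0.37 to 0.51). Each group held both low and high libraries for both genes.

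**Figure D3:**
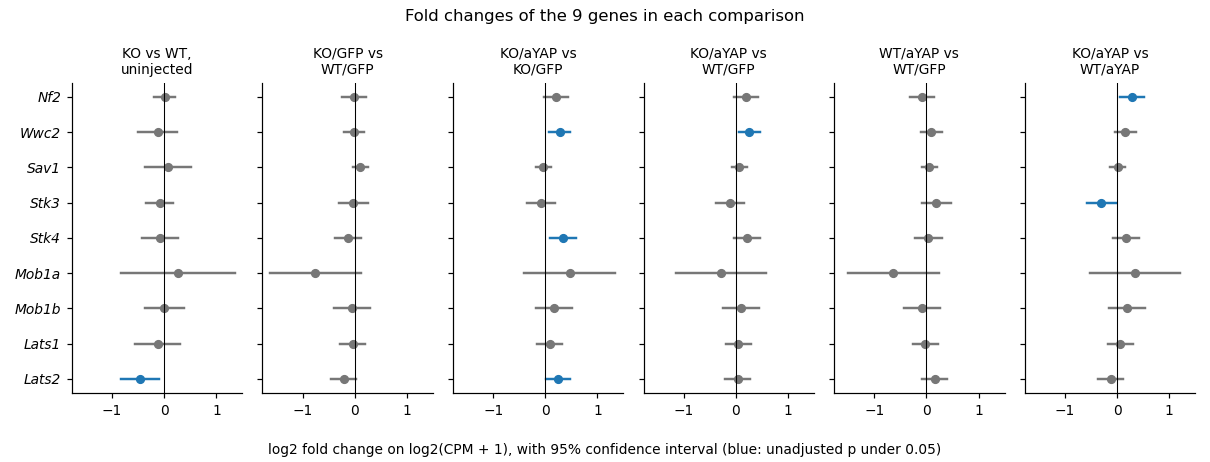
Log2 fold changes of the 9 genes on the log2(CPM + 1) scale (horizontal axes) with 95% confidence intervals from limma in 6 comparisons, one per panel; blue marks an unadjusted p under 0.05. No gene had an adjusted p under 0.05, and only Mob1a has intervals that reach beyond 1 in size.

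The second comparison asks the same of hearts that carried the control vector. Between Xinβ-KO/GFP and WT/GFP none of the 9 members passed, where 13.7% of 14597 tested genes did. No member had an unadjusted p under 0.05 by limma, against 27.4% of all genes, and edgeR's quasi-likelihood test also called 0 members. The median size of the change was 0.06 over the members and 0.19 over all genes, and 8 of 9 log2 fold changes were below 0, none past the test. The 2 groups did not overlap for Sav1 and Mob1a, that is 2 of 9 members, and for 15.3% of all genes.

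Nf2 measured 113, 122, 129 and 138 CPM across the WT/GFP hearts against 139, 101, 123 and 136 CPM across the Xinβ-KO/GFP hearts. The log2 fold change of Nf2 was -0.01 (95% confidence interval -0.24 to 0.22). Lats2 measured 48.8, 55.7, 61.8 and 64.9 CPM across the WT/GFP hearts against 53.6, 45.8, 55.2 and 44.3 CPM across the Xinβ-KO/GFP hearts. Its log2 fold change of -0.21 (95% confidence interval -0.45 to 0.03, adjusted p = 0.242 by limma) was the largest after Mob1a, and 2 of the 4 Xinβ-KO/GFP libraries lay below all WT/GFP libraries. The sign was that of uninjected hearts, in separately normalised tables.

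Sav1 measured 48.1, 48.6, 49.9 and 49.6 CPM across the WT/GFP hearts against 51.9, 53.5, 51.9 and 54.3 CPM across the Xinβ-KO/GFP hearts. All 4 Xinβ-KO/GFP libraries were higher, by a small amount (log2 fold change 0.11, 95% confidence interval -0.04 to 0.25, adjusted p = 0.335 by limma). Atl1, whose exons overlap those of Sav1, had a log2 fold change of 0.22 in the same comparison (adjusted p = 0.266 by limma), and its part in the Sav1 values was not tested. Stk3, Lats1, Mob1b and Wwc2 had log2 fold changes of -0.03, -0.04, -0.06 and -0.02, and Stk4 one of -0.13 (95% confidence interval -0.38 to 0.12).

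The third comparison asks what active YAP in cardiomyocytes did to the cascade in Xinβ-KO hearts. None of the 9 members passed between Xinβ-KO/aYAP and Xinβ-KO/GFP, where 14.8% of all genes did. Stk4, Lats2 and Wwc2 had an unadjusted p under 0.05 by limma, 3 of 9 members against 29.6% of all genes, a share near the background. edgeR's quasi-likelihood test called 0 members and DESeq2 called 1, Wwc2 (adjusted p = 0.0435). In 7 of 9 members the log2 fold change was above 0, with a signed median of 0.21 over the members and 0.01 over all genes. The median size of the change, sign aside, was 0.207 over the members and 0.211 over all genes, so it was near the background. The groups overlapped in all 9, while 17.5% of all genes did not overlap.

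Wwc2 had the smallest adjusted p of any member in any comparison. It measured 78.4, 72.8, 80.1 and 86.8 CPM across the Xinβ-KO/GFP hearts against 100.2, 91.2, 83.0 and 112 CPM across the Xinβ-KO/aYAP hearts. In Xinβ-KO/aYAP hearts, 3 of 4 libraries lay above all Xinβ-KO/GFP libraries, and replicate 3 lay among them. The log2 fold change of Wwc2 was 0.27 (standard error 0.09, 95% confidence interval 0.07 to 0.47, adjusted p = 0.0605 by limma), and without Xinβ-KO/aYAP replicate 3 it was 0.34 and passed (adjusted p = 0.0280 by limma). Over the 16 fits that each left out 1 injected library it ran from 0.20 to 0.34, with an adjusted p of up to 0.173 by limma. Cldn22, an annotated gene on the opposite strand that was not listed, shares 995 bases or 7.22% of the merged exon length of Wwc2. Of the principal Wwc2 transcript, 10.96% of 50-base and 9.92% of 150-base windows occur in Cldn22, whose part in the Wwc2 values was not tested.

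Stk4 measured 17.4, 17.4, 20.5 and 24.1 CPM across the Xinβ-KO/GFP hearts against 23.7, 26.9, 21.7 and 29.2 CPM across the Xinβ-KO/aYAP hearts. Xinβ-KO/GFP replicate 4 alone lay inside the range of Xinβ-KO/aYAP. The log2 fold change of Stk4 was 0.34 (standard error 0.12, 95% confidence interval 0.09 to 0.60, adjusted p = 0.0651 by limma). It passed without Xinβ-KO/GFP replicate 4 (0.43, adjusted p = 0.0271 by limma) and without Xinβ-KO/aYAP replicate 3 (0.41, adjusted p = 0.0456 by limma), while over all 16 such fits it ran from 0.27 to 0.43 with an adjusted p of up to 0.171.

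Lats2 was at 66.4, 51.7, 53.3 and 65.0 CPM in Xinβ-KO/aYAP hearts, with replicates 2 and 3 inside the Xinβ-KO/GFP range of 44.3 to 55.2 CPM (log2 fold change 0.24, 95% confidence interval 0.00 to 0.48, adjusted p = 0.163 by limma). Nf2 was at 143, 147, 129.9 and 154 CPM there, with a log2 fold change of 0.21 (-0.02 to 0.44). Sav1, Stk3 and Lats1 had log2 fold changes of -0.04, -0.08 and 0.08, and Mob1b had 0.16 (-0.18 to 0.51). Fibroblast markers, at 1313 to 2141 CPM in Xinβ-KO/GFP and 2694 to 3253 CPM in Xinβ-KO/aYAP hearts, had 4 of 6 genes called higher over the same libraries, as did smooth muscle and pericyte markers (1271 to 1588 and 1894 to 2380 CPM, 3 of 6). Leukocyte and macrophage markers also had 4 of 6 called higher, and endothelial markers 2 higher and 1 lower. Cardiomyocyte markers had 1 called lower, neutrophil markers 2 of 3 tested, and erythroid and epicardial markers none either way. The part of these cell types in the values of Wwc2, Stk4 and Lats2 was not tested.

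Short sequences are shown because YAP acts through TEAD factors, whose core site reads GGAATG, and Wwc2, Stk4 and Lats2 had the lowest p-values with active YAP. RefSeq start-site windows (GRCm38.p6, 250 bases before to 50 after the start, both strands searched) were at hand for 8 of the 9 genes, with Stk3 not matched. The letters occurred in 4 of these 8, and in 16.6% of 27025 genes with such windows. Wwc2 held 3 copies, a number reached in 0.131% of 32851 windows, while Stk4, Lats1, Mob1b and Nf2 held none. Wwc2 had the most copies of the 8 genes and was singled out after the counts were seen, so this share is not a test. Capitals mark the core or its reverse complement, CATTCC, in the lines here, each written in the direction of the gene.
Wwc2 (chr8:47990613-47990642, minus strand): ctcaGGAATGtggcggcgaGGAATGtgcat
Lats2 (chr14:57746102-57746131, minus strand): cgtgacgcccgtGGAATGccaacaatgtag
Mob1a (chr6:83325818-83325847, plus strand): tggccagaatagCATTCCtttaggagaaga
Sav1 (chr12:69987091-69987120, minus strand): cggctttcccagCATTCCcagcggcgcggg
The first copy shown for Wwc2 starts 94 and the next 79 bases before the RefSeq start, and the copy in Lats2, found in 1 of its 2 windows, lies from base 4 to 9 after the start. The Wwc2 and Lats2 stretches overlap exons annotated in GENCODE M21, and those of Mob1a and Sav1 do not. A match of letters is a description and no binding was measured.

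In WT hearts active YAP left no gene past the test in limma. Between WT/aYAP and WT/GFP none of the 9 members passed, 0.0% of all genes passed, and no member had an unadjusted p under 0.05 by limma, against 6.93% of all genes. edgeR's quasi-likelihood test called 0 members. Mob1a was the member whose groups did not overlap, against 4.32% of all genes. The largest change apart from Mob1a was in Stk3 (log2 fold change 0.19, 95% confidence interval -0.08 to 0.47), which measured 15.3, 16.7, 16.7 and 15.8 CPM across the WT/GFP hearts against 19.4, 23.9, 15.1 and 16.9 CPM across the WT/aYAP hearts. WT/aYAP replicates 1, 2 and 4 lay above all WT/GFP libraries and replicate 3 below them.

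Xinβ-KO/aYAP hearts were also set against both WT groups. Against WT/GFP none of the 9 members passed, where 0.0206% of all genes did, and Wwc2 was the member with an unadjusted p under 0.05 by limma, against 6.08% of all genes. The WT/GFP values of Wwc2 were 75.2, 86.2, 83.8 and 76.6 CPM (log2 fold change 0.26, 95% confidence interval 0.06 to 0.45, adjusted p = 0.722 by limma). The groups overlapped in all 9 members and did not overlap in 4.45% of all genes. Against WT/aYAP none of the 9 passed, where 0.0411% of all genes did. Nf2 and Stk3 had an unadjusted p under 0.05 by limma, 2 of 9 against 11.1% of all genes, and 0 members against 9.23% of all genes did not overlap. edgeR's quasi-likelihood test called 0 members in both.

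For Nf2 the difference from WT/aYAP was 0.28 on the log2 scale (95% confidence interval 0.05 to 0.51, adjusted p = 0.365 by limma). Nf2 was at 136, 121, 114 and 103 CPM in WT/aYAP hearts, of which replicate 1 lay inside the Xinβ-KO/aYAP range, and the other WT/aYAP libraries lay below it. Stk3 was at 16.7, 15.5, 14.98 and 12.6 CPM in Xinβ-KO/aYAP hearts, lower by 0.30 on the log2 scale (log2 fold change -0.30, 95% confidence interval -0.58 to -0.03, adjusted p = 0.401 by limma), with replicates 1 and 2 inside the WT/aYAP range and replicates 3 and 4 below it.

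Whether active YAP acted differently on the cascade in Xinβ-KO and WT hearts was tested as the interaction of genotype and vector. None of the 9 members passed, where 7.56% of all genes did, and none had an unadjusted p under 0.05 by limma, against 23.7% of all genes. edgeR's quasi-likelihood test called 0 members. Without Mob1a the interaction terms ran from -0.27 for Stk3 to 0.31 for Stk4, with 95% confidence intervals within -0.66 to 0.73. Mob1a had 1.10 (95% confidence interval -0.13 to 2.33, adjusted p = 0.265 by limma), and 0.67 without WT/aYAP replicate 4. These comparisons share groups, so they are not independent of each other.

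Mob1a lies on chromosome 6 from 83326016 to 83343776 and encodes a LATS co-activator. Its libraries fell into a low and a high range, told apart after the values were seen, and low libraries occurred in both genotypes and with both vectors. In uninjected hearts 3 of 8 libraries (WT replicates 2 and 3, Xinβ-KO replicate 2) were at 13.0 to 20.1 CPM and the other 5 at 33.8 to 59.3 CPM. In injected hearts 3 of 16 libraries were at 15.2 to 21.6 CPM and the other 13 at 41.3 to 70.4 CPM. The low ones were Xinβ-KO/GFP replicate 3 (17.6 CPM), WT/aYAP replicate 4 (15.2 CPM) and Xinβ-KO/aYAP replicate 4 (21.6 CPM), and WT/GFP had none.

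The paralogue Mob1b, at 44.3 to 76.1 and 44.5 to 85.5 CPM in the 2 tables, showed no such gap in those libraries. The space between the low and the high range of Mob1a was 0.72 and 0.90 on the log2 scale. No stretch of 50 bases in the principal Mob1a transcript occurred in an annotated transcript of another gene.

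With these libraries in the groups, Mob1a measured 61.4, 68.4, 56.0 and 57.4 CPM across the WT/GFP hearts against 44.5, 41.3, 17.6 and 49.2 CPM across the Xinβ-KO/GFP hearts. All 4 Xinβ-KO/GFP libraries were lower (log2 fold change -0.75, 95% confidence interval -1.62 to 0.12, adjusted p = 0.252 by limma). Without Xinβ-KO/GFP replicate 3 the log2 fold change of Mob1a was -0.43, not past the test. WT/aYAP hearts were at 52.7, 54.9, 50.0 and 15.2 CPM, all below WT/GFP as well (log2 fold change -0.63, 95% confidence interval -1.50 to 0.23, adjusted p = 0.822 by limma). Without WT/aYAP replicate 4 that log2 fold change of Mob1a was -0.20. Xinβ-KO/aYAP hearts were at 62.8, 70.4, 62.0 and 21.6 CPM and overlapped with each other injected group.

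Mob1a had the largest fold change of any member in the injected table, and the genes most like it over the 16 injected libraries, by the root mean square difference of mean-centred log2(CPM + 1), were Moap1 (0.42), Calhm2 (0.43) and Rinl (0.44). The root mean square deviation of Mob1a itself was 0.65. All 3 are at low levels, between 1.12 and 7.34 CPM, so their likeness to Mob1a is loose. They were picked in these same injected libraries. In the uninjected table Calhm2 differed from Mob1a by 0.62 and Rinl by 0.96, where Mob1a itself deviated by 0.73, and Moap1 was not listed there.

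**Figure D4:**
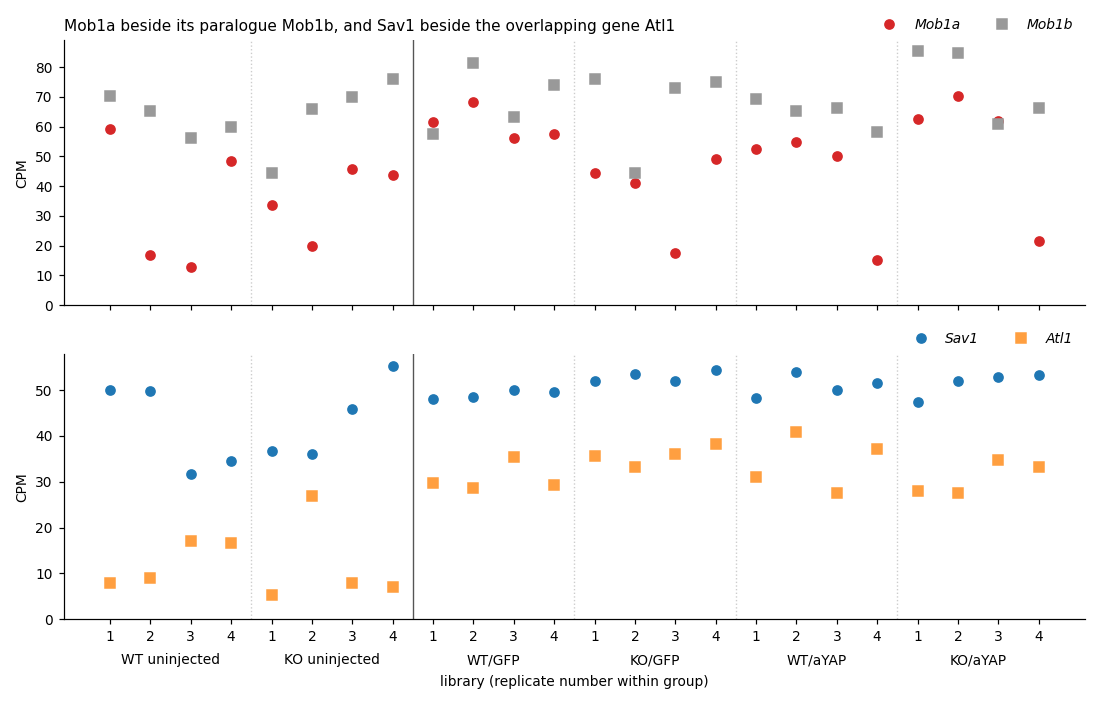
CPM (vertical axes) in each of the 24 libraries, ordered by group and replicate number, for Mob1a with its paralogue Mob1b (top) and for Sav1 with the overlapping gene Atl1 (bottom). Mob1a is at 13.0 to 21.6 CPM in 6 libraries where Mob1b is at 56.1 to 73.0 CPM; Sav1 is at 47.4 to 54.3 CPM in all injected libraries and at 31.8 to 55.3 CPM in uninjected ones.

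Sav1 lies on chromosome 12 from 69965012 to 69987002 and shares 1336 bases, 25.4% of its exon length, with Atl1 on the opposite strand. Of the 150-base windows of its principal transcript, 50.0% occur in an Atl1 transcript. The libraries were strand-specific, and whether counting used strand is not given in the sources used here. In uninjected hearts the 4 libraries lowest in Sav1 were WT replicates 3 and 4 and Xinβ-KO replicates 1 and 2, where Atl1 was at 17.02, 16.7, 5.34 and 27.0 CPM. In the other uninjected libraries Atl1 was at 7.12 to 8.99 CPM. So 3 of the 4 libraries low in Sav1 were the highest in Atl1, and the sum of both genes still ran from 42.1 to 62.9 CPM. In injected hearts, read in pairs of 150 bases rather than single reads of 50 bases, Atl1 was at 27.5 to 40.8 CPM. Sav1 values of both tables are therefore uncertain.

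**Figure D5:**
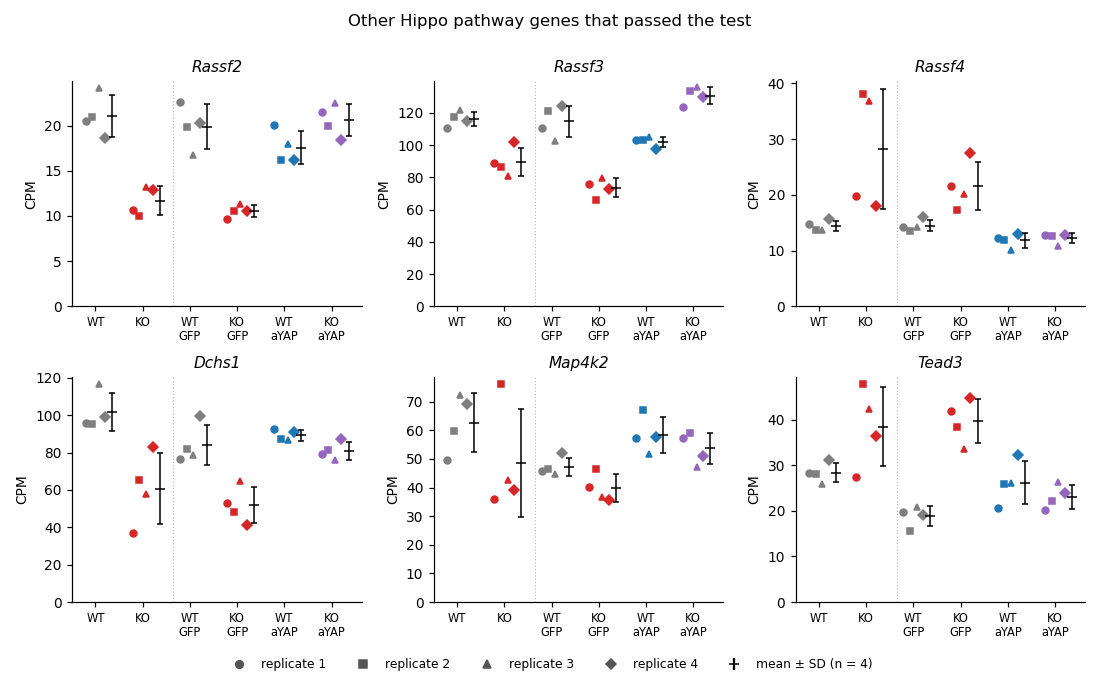
CPM (vertical axes, from 0) in the 24 libraries of 6 pathway genes outside the 9, by group, with symbols for the replicate number and black bars for the mean ± SD of 4 libraries. Rassf2 and Rassf3 are lower in all 4 Xinβ-KO/GFP libraries than in every WT/GFP and Xinβ-KO/aYAP library, and Rassf4 and Tead3 are higher.

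Around the 9 genes, 81 further pathway genes were tested, in lists of other kinases, membrane and junction scaffolds, cascade inhibitors, YAP/TEAD factors and YAP targets. Lats2, also in the list of YAP targets, is counted with the 9. In uninjected hearts 1 of 81 was called higher and 2 lower, 3.70% against the 6.69% of all genes. With the control vector, 7 were higher in Xinβ-KO than in WT hearts and 6 lower (16% against 13.7%). In Xinβ-KO/aYAP against Xinβ-KO/GFP hearts 10 were higher and 4 lower (17.3% against 14.8%). The interaction called 8 of 81 (9.88% against 7.56%). The other 3 comparisons called 0, where 0.0206%, 0.0% and 0.0411% of all genes were called. In injected hearts these shares lie near those of all genes.

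Of the membrane and junction scaffolds, 22 were tested. They include RASSF adaptors, several of which bind MST kinases through a shared SARAH domain. Rassf2 measured 20.5, 20.9, 24.2 and 18.6 CPM across the WT hearts against 10.7, 9.98, 13.2 and 12.9 CPM across the Xinβ-KO hearts (log2 fold change -0.80, standard error 0.13, adjusted p = 0.00992 by limma). With the vectors, Rassf2 values were 22.7, 19.9, 16.7 and 20.3 CPM for WT/GFP, 9.68, 10.6, 11.3 and 10.6 CPM in Xinβ-KO/GFP and 21.5, 19.98, 22.5 and 18.4 CPM in Xinβ-KO/aYAP hearts. Rassf2 fell in Xinβ-KO/GFP (-0.85, adjusted p = 1.9e-04 by limma) and rose with active YAP in Xinβ-KO hearts (log2 fold change 0.90, adjusted p = 9.8e-05 by limma). All 4 libraries of each lower group lay below all of the other group.

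Rassf3 moved likewise, from 103 to 124 CPM in WT/GFP to 65.8 to 79.9 CPM in Xinβ-KO/GFP (log2 fold change -0.63, adjusted p = 1.2e-04 by limma) and 124 to 136 CPM in Xinβ-KO/aYAP hearts (0.82, adjusted p = 1.1e-05 by limma). In uninjected hearts it was lower by 0.38 on the log2 scale (log2 fold change -0.38, adjusted p = 0.0494 by limma), a call that 12 of 19 alternatives did not keep. Rassf4 went the other way, at 13.4 to 15.9 CPM in WT/GFP, 17.3 to 27.5 CPM in Xinβ-KO/GFP (0.53, adjusted p = 0.0125 by limma) and 10.9 to 12.9 CPM in Xinβ-KO/aYAP hearts (-0.75, adjusted p = 0.00130 by limma). The uninjected difference of Rassf4 was not called (log2 fold change 0.85, adjusted p = 0.0705 by limma). Leukocyte and macrophage markers summed to 47.8 to 70.1 CPM in WT/GFP, 20.9 to 30.96 CPM in Xinβ-KO/GFP and 48.3 to 62.2 CPM in Xinβ-KO/aYAP hearts. In uninjected hearts they summed to 39.6 to 49.3 CPM in WT and 17.5 to 26.5 CPM in Xinβ-KO, while neutrophil markers summed to 4.88 to 10.4 and 48.0 to 105.5 CPM. In injected hearts neutrophil markers summed to 5.76 to 11.4 CPM in WT/GFP, 31.2 to 59.0 CPM in Xinβ-KO/GFP and 2.09 to 14.9 CPM in Xinβ-KO/aYAP, higher and then lower as Rassf4 was. Their part in the RASSF values was not tested.

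In the same list, Dchs1, a protocadherin ligand upstream of the pathway, was lower in Xinβ-KO/GFP (41.4 to 64.6 CPM) than in WT/GFP hearts (76.4 to 99.8 CPM, log2 fold change -0.70, adjusted p = 0.00107 by limma) and higher again in Xinβ-KO/aYAP hearts (76.0 to 87.3 CPM, 0.65, adjusted p = 0.00159 by limma). The uninjected difference of Dchs1 was not called (log2 fold change -0.79, adjusted p = 0.0627 by limma). Fibroblast markers moved with it, at 2574 to 3054 CPM in WT/GFP, 1313 to 2141 CPM in Xinβ-KO/GFP and 2694 to 3253 CPM in Xinβ-KO/aYAP, with 4 of 6 called lower and then 4 of 6 called higher, and their part in the Dchs1 values was not tested. Of 12 other kinases, Taok2 was called lower in Xinβ-KO/GFP (log2 fold change -0.24, adjusted p = 0.0493 by limma), and Map4k2 (0.42, adjusted p = 0.0129 by limma) and Stk38l (0.37, adjusted p = 0.0352 by limma) higher in Xinβ-KO/aYAP than in Xinβ-KO/GFP hearts. Taok2 lost its call in 22 of 28 alternatives and Stk38l in 9 of 28. Of 21 cascade inhibitors, Siah2 (0.79) and Cttnbp2nl (0.46) were called higher with active YAP in Xinβ-KO hearts. Siah2 lost its call in 5 of 28 alternatives and Cttnbp2nl in 22 of 28. Tead3, a DNA-binding partner of YAP, was at 15.7 to 20.9 CPM in WT/GFP, 33.5 to 44.8 CPM in Xinβ-KO/GFP and 20.1 to 26.2 CPM in Xinβ-KO/aYAP hearts (log2 fold changes 1.03 and -0.75). Between uninjected groups Tead3 overlapped and was not called (log2 fold change 0.40, adjusted p = 0.186 by limma). Against WT/GFP, Tead3 was higher in WT/aYAP hearts, also not called (log2 fold change 0.44, adjusted p = 0.644 by limma).

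Mouse Yap1, the coactivator that LATS kinases phosphorylate, ranged from 90.7 to 103 CPM among uninjected WT hearts, and its Xinβ-KO values in order of replicate were 47.9, 99.0, 50.05 and 49.7 CPM. Xinβ-KO replicate 2 lay inside the WT range and the other 3 lay below it. The log2 fold change of Yap1 was -0.71 (95% confidence interval -1.20 to -0.22, adjusted p = 0.0859 by limma), larger in size than that of any of the 9 members there, and without Xinβ-KO replicate 2 it was -0.96 and passed (adjusted p = 0.00434 by limma). Over the 8 fits without 1 library it ran from -0.96 to -0.62, with an adjusted p of up to 0.206 by limma. In injected hearts the log2 fold changes of Yap1 were 0.02 between the GFP groups and -0.03 between the Xinβ-KO vector groups. Whether reads of the human transgene were counted in this row was not tested, so it does not show which libraries carried the transgene.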

How the data were processed

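By the study's methods, the authors used Cutadapt 2.3 for trimming, HISAT2 2.1.0 for alignment (GRCm38), StringTie 1.3.4 for transcripts, its companion script for gene counts estimated from coverage, and edgeR 3.26.1 for CPM. The deposited tables hold this normalised signal. Each library's CPM total lies between 942566 and 1134439, so the values are read here as CPM on scaled library sizes, which no source states. At least 99.9607% of nonzero values were whole multiples of the value of 1 read (tolerance 0.05 reads), so the estimated counts could be recovered, and edgeR's quasi-likelihood test on them called 956 genes between the uninjected groups, 1904 between the GFP groups and 2103 between the Xinβ-KO vector groups. The read length given to the counting script is not given in the sources used here, so read totals depend on it. The tables of uninjected (50-base single reads) and injected (150-base paired reads) hearts were normalised separately and tested separately.

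Genes over 1 CPM in at least 50% of the libraries of a table were tested on log2(CPM + 1), 15598 and 14597 genes, with limma 3.58.1 (trend on) and Benjamini-Hochberg adjusted p-values. This scale understates changes of low genes. One model held the 16 injected libraries. Symbols, positions and transcripts come from GENCODE M21. Alternatives were median-ratio and quantile scaling, a pseudocount of 0.1, no filter or 5 CPM, limma without trend, edgeR 4.0.16 (quasi-likelihood and exact tests) and DESeq2 1.42.0 on recovered counts, Ddx3y as a covariate, the replicate number as a block, only the compared groups, and leaving out each library. Groups follow the labels. Tests were tried on simulated data. The members, gene lists, tests and alternatives were chosen with earlier results of these data known. Named genes are the 9 members, at most 3 genes with the smallest adjusted p under 0.05 per list and comparison, the 3 genes most like the member with the largest fold change, and Xirp2, Yap1 and Ddx3y as checks. Outside this rule, Atl1, Gm49361 and Cldn22 are named because they share sequence with members. Scripts ran in R 4.3.3 and Python 3.11.15.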

Additional observations from a re-analysis of the deposited data

Results flagged for a closer look

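A library stood apart from the other 3 of its group (Dixon's test, 95% level) in 12 of 168 groups of 4, over the 28 genes with values per library, where chance gives about 1 in 20 or 8.4. Stk4 was at 18.7 CPM in uninjected Xinβ-KO replicate 1, against 28.0 to 28.8 CPM in the others. Mob1a was at 15.2 CPM in WT/aYAP replicate 4, against 50.0 to 54.9 CPM. Mob1b was at 44.5 CPM in Xinβ-KO/GFP replicate 2, against 73.0 to 76.0 CPM. Wwc2 was at 84.2 CPM in uninjected WT replicate 3, against 75.5 to 76.1 CPM. Among the pathway genes, Rassf4 was at 10.9 CPM in Xinβ-KO/aYAP replicate 3, against 12.7 to 12.9 CPM, and Map4k2 at 76.4 CPM in uninjected Xinβ-KO replicate 2, against 35.9 to 42.7 CPM. Cttnbp2nl was at 11.4 CPM in uninjected WT replicate 3, against 41.6 to 46.2 CPM, and at 26.6 CPM in Xinβ-KO/GFP replicate 2, against 44.9 to 48.5 CPM. Yap1 was at 99.0 CPM in uninjected Xinβ-KO replicate 2, against 47.9 to 50.05 CPM. Atl1, which overlaps Sav1, was at 27.0 CPM in that library, against 5.34 to 7.84 CPM, and at 35.3 CPM in WT/GFP replicate 3, against 28.7 to 29.6 CPM. The Y-linked Ddx3y was at 0.11 CPM in WT/GFP replicate 4, against 54.2 to 56.7 CPM. Ddx3y was also low, without meeting Dixon's limit, in Xinβ-KO/GFP replicate 2 (0.588 CPM), WT/aYAP replicate 3 (8.61 CPM), Xinβ-KO/aYAP replicates 3 and 4 (0.915 and 0.229 CPM) and uninjected Xinβ-KO replicate 4 (3.68 CPM), and in no uninjected WT library (39.5 to 49.6 CPM), so low libraries were spread unequally over the groups.

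No member had an effect of active YAP that differed between genotypes past the test. Among the named pathway genes the interaction of genotype and vector passed in limma for Tead3 (-1.20), Axl (0.73), Igfbp3 (-1.95), Rassf3 (0.99), Rassf2 (1.07), Nt5e (-1.13), Dchs1 (0.56) and Taok3 (0.85), all on the log2 scale. Axl, Igfbp3 and Nt5e were in the list of YAP targets. Of these 8 calls, those of Tead3, Axl, Rassf3 and Rassf2 were kept in all 26 alternatives, those of Nt5e and Taok3 in 15, that of Igfbp3 in 10 and that of Dchs1 in 6.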

How the results depend on the processing

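Groups of 4 libraries limit every interval given for the members. Counts of called members stayed at 0 in all comparisons and alternatives except these. In uninjected hearts the Ddx3y covariate gave 1 (Lats2), and leaving out a library gave 0 to 1. For Xinβ-KO/aYAP against Xinβ-KO/GFP, DESeq2 gave 1 (Wwc2) and leaving out a library 0 to 2, with 1 (Stk4) without Xinβ-KO/GFP replicate 4 and 2 (Stk4, Wwc2) without Xinβ-KO/aYAP replicate 3. The causes were not tested.

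The sign of a log2 fold change turned, none of them called, in uninjected hearts for Mob1b (-0.0447) and Nf2 (-0.0848) with quantile scaling and for Mob1b (-0.0361), Nf2 (-0.0135) and Sav1 (-0.0400) with the Ddx3y covariate, and in Xinβ-KO/GFP against WT/GFP for Stk3 (0.0046) and Yap1 (-0.0087) with quantile scaling. Leaving out a library turned signs in uninjected hearts within ranges of -0.0856 to 0.17 for Mob1b, -0.0288 to 0.0588 for Nf2, -0.13 to 0.0699 for Stk4, -0.0502 to 0.17 for Sav1, -0.22 to 0.0498 for Wwc2, -0.23 to 0.0825 for Lats1 and -0.0949 to 0.61 for Mob1a. In Xinβ-KO/GFP against WT/GFP it did so for Mob1b (-0.14 to 0.12), Nf2 (-0.0668 to 0.0838), Stk3 (-0.0640 to 0.0293), Wwc2 (-0.0591 to 0.0239) Lats1 (-0.0873 to 0.0431) and Yap1 (-0.0037 to 0.0491), and in Xinβ-KO/aYAP against Xinβ-KO/GFP for Mob1b (-0.0208 to 0.25), Lats1 (-0.0013 to 0.15) and Yap1 (-0.0591 to 0.00069).

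For the 81 other pathway genes, 3 calls in uninjected hearts became 5 with quantile scaling, 8 with DESeq2, 7 with the edgeR exact test, 8 with the Ddx3y covariate and 1 to 9 with a library left out (1 without WT replicate 1, 9 without Xinβ-KO replicate 1, 8 without Xinβ-KO replicate 4). Xinβ-KO/GFP against WT/GFP went from 13 to 7 with only the 2 groups and 8 to 16 with a library left out (8 without Xinβ-KO/GFP replicate 4), and Xinβ-KO/aYAP against Xinβ-KO/GFP from 14 to 9 with only the 2 groups and 9 to 18 with a library left out (9 without Xinβ-KO/aYAP replicate 1). Against WT/GFP, Xinβ-KO/aYAP gave 1 with DESeq2 and 1 with the exact test, and against WT/aYAP 2, 1 and, with a library left out, 0 to 1 (1 without Xinβ-KO/GFP replicate 2).

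Same-numbered libraries deviated together (correlation over 0.1) in 1 of 24 pairs, from -0.191 to 0.137, so the replicate numbers do not pair them. With the replicate block 0 members were called in every comparison, the interaction called 4 instead of 8 pathway genes (4 to 8 with a library left out and no block), and calls over all genes were 2.71 times fewer than the 1044 without it in uninjected hearts and 1.56 times fewer in the interaction (707 against 1104).

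Over all genes, the 1044 calls in uninjected hearts became 1955 with DESeq2, 1927 with the Ddx3y covariate and 692 over 5 CPM, and 316 to 2031 with a library left out (lowest without WT replicate 1, highest without Xinβ-KO replicate 4). Leaving out a library gave 1258 to 2749 for Xinβ-KO/GFP against WT/GFP (1258 without Xinβ-KO/GFP replicate 1 or 4), 1474 to 2490 for Xinβ-KO/aYAP against Xinβ-KO/GFP and 625 to 1467 for the interaction, which fell from 1104 by over 1.5 times without Xinβ-KO/GFP replicate 1, Xinβ-KO/aYAP replicate 1 or 2, WT/GFP replicate 2 or WT/aYAP replicate 2, 3 or 4. The shares of all genes called move with these counts. With only the 2 groups, 1993 became 962 for Xinβ-KO/GFP against WT/GFP and 2156 became 1282 for Xinβ-KO/aYAP against Xinβ-KO/GFP. The 6, 3 and 0 calls of Xinβ-KO/aYAP against WT/aYAP, of Xinβ-KO/aYAP against WT/GFP and of WT/aYAP against WT/GFP became 67, 24 and 11 with DESeq2 and 42, 21 and 6 with the exact test. With a library left out they ran from 0 to 16 (0 without WT/aYAP replicate 2 or 4, 16 without Xinβ-KO/GFP replicate 2), 0 to 4 (0 without WT/GFP replicate 3 or WT/aYAP replicate 3) and 0 to 1, and with only the 2 groups they were 15, 3 and 0.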
